A study of Mus musculus with 3 samples.

Results

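The genes described here encode the last part of the mitochondrial respiratory chain, from complex III to the ATP synthase. They were chosen by name: every gene whose symbol begins with Uqcr, with Cox followed by a number from 4 to 8, or with Atp5, together with Cyc1, Cycs, mt-Cytb, mt-Co1, mt-Co2, mt-Co3, mt-Atp6 and mt-Atp8, and with at least 50 UMIs over the 3 sections. Of the 32285 genes in the files, 51 symbols matched and 49 reached that number. The 2 that did not were Cox7b2, with 14 UMIs, and Cox8c, with 1 UMI. The rule itself uses names and UMIs and no difference between sections, but it was set with earlier results of these sections known. Of the 49 genes, 43 are coded in the nucleus and 6 in the mitochondrial genome. The nuclear genes are 9 of complex III, cytochrome c (Cycs), 16 of complex IV and 17 of complex V.

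The levels come from Visium libraries, in which polyadenylated RNA from a cryosection of heart is caught on a slide of barcoded spots. There was 1 section per condition, each from a C57BL/6 mouse, and the study's methods give an age of 8 weeks. The sham mouse received vehicle by gavage for 7 days and then an operation in which the needle was passed without ligation. The I/R mouse received the same vehicle for 7 days, then ligation of the left anterior descending coronary artery (LAD) for 30 min and reperfusion for 24 h. The SBP mouse received Shexiang Baoxin Pill (SBP, labelled MUSKARDIA), a pill of traditional Chinese medicine, for the 7 days before the same ischemia and reperfusion. No genetic modification is named in the labels, and all 3 mice were operated. An SBP mouse without ischemia is not among the sections, so the SBP and sham sections differ in ischemia and reperfusion as well as in the pill.

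Complex III passes electrons from ubiquinol to cytochrome c, complex IV passes them on to oxygen, and both pump protons out of the mitochondrial matrix. Complex V, the ATP synthase, lets the protons back in and makes ATP. Each of the 3 complexes joins subunits made in the cytosol from nuclear genes with a few hydrophobic subunits made inside the mitochondrion, and heart muscle, which beats without rest, is among the tissues richest in them. Several complex IV subunits exist in pairs: Cox6a2, Cox7a1 and Cox8b are the isoforms of heart and skeletal muscle, while Cox6a1, Cox7a2 and Cox8a are made in most tissues.

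Once sparse spots, those in which under 200 genes were detected, had been removed (1 to 3 per section), 1960 to 2234 spots remained in a section, with 21631280 to 30238530 UMIs in all and a median of 10645 to 14672 UMIs per spot. A spot covers more than 1 cell and often more than 1 cell type. Levels are UMIs of a gene per 1000000 UMIs of the section (CPM), with an exact Poisson 95% interval. Ratios between sections are on the log2 scale with an exact 95% interval. As no condition was replicated, there is no test and no p-value, and all intervals cover counting error only: a difference between sections can be one between animals or between pieces of tissue. These 3 sections share no UMIs, and the 1093 barcodes found in all of them are positions of the slide design. The tissue label was met by the data, since all 10 cardiomyocyte markers that were checked were present, Myl2 at 8417 to 12116 CPM, while Ucp1 of brown fat had 1 UMI in all. The 4 brown fat genes checked, Ucp1 included, summed to 28.1 (sham), 23.1 (I/R) and 29.9 (SBP) CPM. The 6 skeletal muscle genes summed to 399, 419 and 307 CPM, in that order. Of these lists, 1 brown fat gene and 2 skeletal muscle genes had 50 or more UMIs. A member counts as past the fold where 2 sections differed by a log2 ratio of 0.32 or more, a factor of 5 to 4. Because the median of all genes was itself shifted, by 0.24 for I/R over sham, -0.17 for SBP over I/R and 0.08 for SBP over sham, the values of the members are to be read against these numbers.

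The members made up a large part of all RNA captured. The 6 mitochondrial-coded members held 36.4% of all UMIs in sham, 33.1% after I/R and 35.1% with SBP, and the 43 nuclear members held 5.18%, 4.76% and 5.16%, in the same order. The summed level of the nuclear members was 51763 CPM in sham, 47562 CPM after I/R and 51640 CPM with SBP. The I/R section was thus the lowest, with a log2 ratio of -0.12 (95% interval -0.13 to -0.12) over sham. In CPM, SBP lay at sham's level, with a log2 ratio of -0.003 (-0.007 to 0.0002) over sham and 0.12 (0.12 to 0.12) over I/R. Of the UMIs outside mitochondrial genes, the nuclear members held 10.1% in sham, 8.54% after I/R and 9.62% with SBP, which puts SBP below sham. Size factors likewise shift every SBP over sham ratio by -0.08. The mitochondrial-coded members summed to 364325 CPM in sham, 331423 CPM after I/R and 350750 CPM with SBP. Their log2 ratio was -0.14 (-0.14 to -0.14) for I/R over sham, with 0.08 (0.08 to 0.08) for SBP over I/R, so both genomes' transcripts were lower in the I/R section by about the same factor.

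The number of members past the fold depended on the scaling. For I/R over sham, 5 of 49 members were lower past the fold, against 10.9% of the 12658 genes with enough UMIs, and 2 of 49 were higher, against 42.6% of those genes. Without mitochondrial UMIs in the total, 11 of 49 were lower, and with median-of-ratios size factors, which move the median nuclear member from -0.12 to -0.34, 26 of 49 were lower. Size factors shift every gene by -0.22 here, and the share of all genes past the fold was not computed under these other scalings. The 10.9% is therefore no background for the 11 and the 26. The median member had a log2 ratio of -0.12, and 44 of 49 lay below the median of all genes. For SBP over I/R, 2 of 49 members were lower past the fold, against 32.6% of all genes, and 1 of 49 was higher, against 7.78%. The median member was 0.09 there, and 4 of 49 lay below the median of all genes. For SBP over sham, 0 of 49 were lower, against 10.0% of all genes, and 1 of 49 was higher, against 19.6%. SBP and I/R are each compared with a section that another comparison also uses, so the 3 sets of ratios are not separate pieces of evidence.

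**Figure D1:**
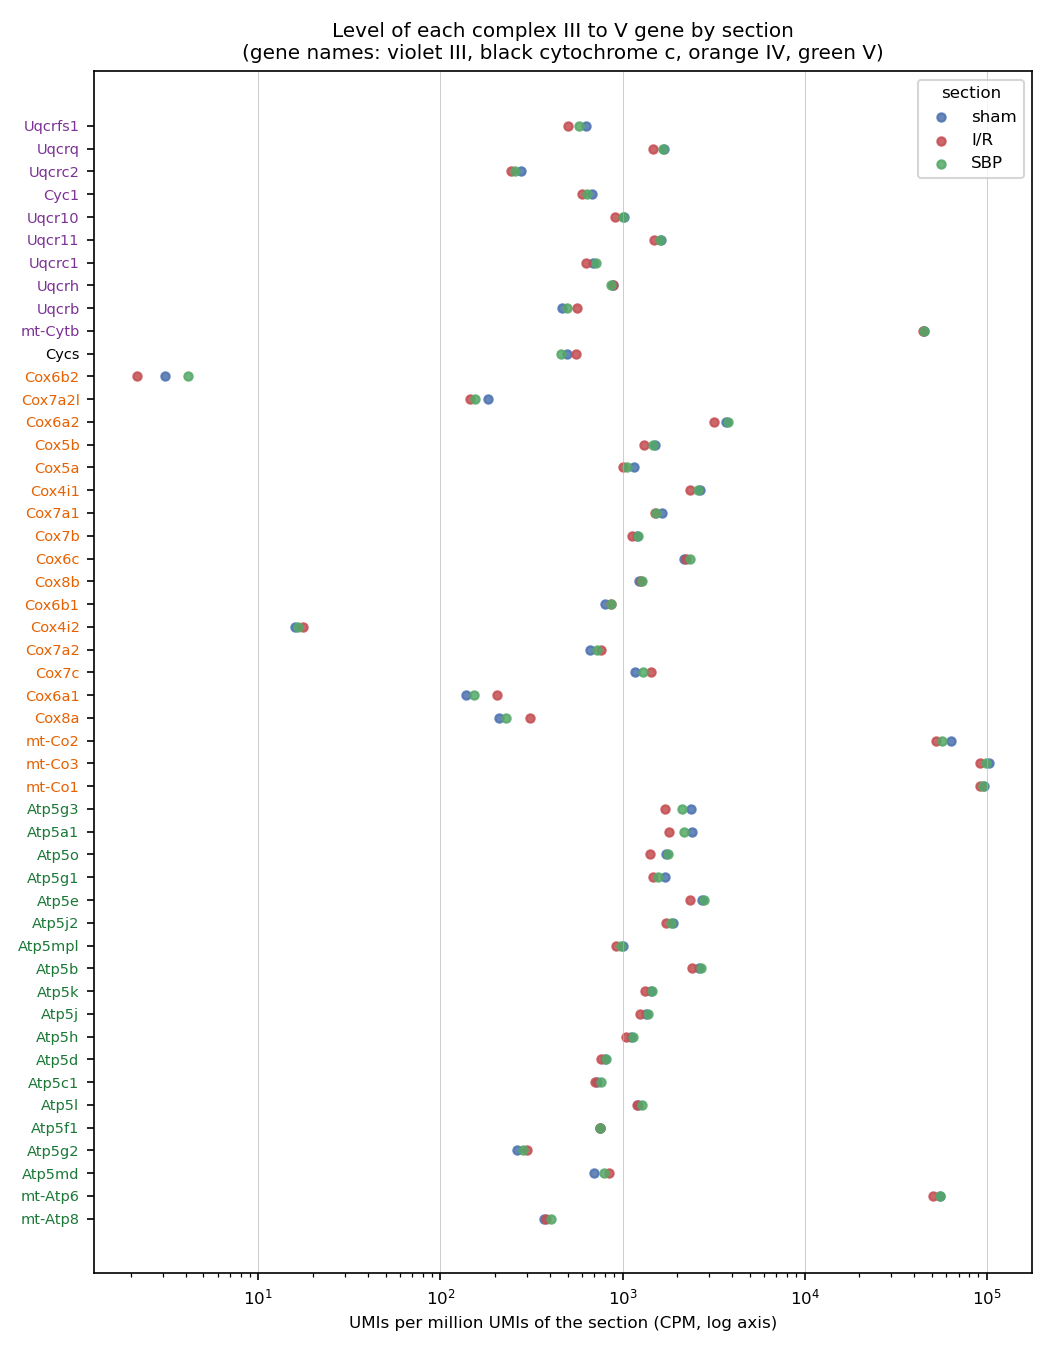
Level of each of the 49 members in CPM (log axis) in the sham, I/R and SBP sections, 1 point per section. The mitochondrial-coded members other than mt-Atp8 lie between 44554 and 103407 CPM, most nuclear members lie near 1000 CPM, and Cox6b2, at 2.15 to 4.11 CPM, is the lowest.

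In tissue captured this way, fewer cardiomyocytes under a spot and less of a transcript per cardiomyocyte cannot be told apart. The 10 cardiomyocyte markers summed to 48715 CPM in sham, 36528 CPM after I/R and 44917 CPM with SBP, a median of -0.34 on the log2 scale for I/R over sham, with 0.27 for SBP over I/R. These markers thus differed between sections more than the members did. The 7 macrophage markers had a median of 0.45 on the log2 scale for I/R over sham, with -0.41 for SBP over I/R, and the 4 neutrophil markers 2.82 and -0.995. The 5 smooth muscle markers had -0.06 and -0.80, and the 7 fibroblast markers -0.13 and -0.48. The 6 endothelial markers had 0.23 and -0.18, and the 5 red cell markers 0.55 and -0.07. For SBP over sham, the smooth muscle median was -0.64 and the fibroblast median -0.32. The part of these cell types in the values of the members was not tested.

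Of the 9 nuclear genes of complex III, 7 had an interval below 0 for I/R over sham, and the median log2 ratio of the 9 was -0.16. Such an interval covers counting error only, and the share of all genes with one was not computed, for this complex or those below. Uqcrfs1 encodes the Rieske iron-sulfur protein, which takes the electron from ubiquinol. Its level was 627 CPM in sham, 501 CPM after I/R and 579 CPM with SBP. The log2 ratio was -0.32 (-0.36 to -0.29) for I/R over sham, the only one of complex III past the fold, and 0.21 (0.18 to 0.24) for SBP over I/R. Uqcrq, a small subunit beside cytochrome b, followed the same order with 1697, 1465 and 1664 CPM. Uqcrc1, a core protein of the matrix side, had 689, 633 and 715 CPM, the highest level being in SBP. Uqcrb, another small subunit needed for the assembly of the complex, went the other way. It had 468 CPM in sham, 563 CPM after I/R and 496 CPM with SBP, a log2 ratio of 0.27 (0.23 to 0.30) for I/R over sham, with -0.18 (-0.22 to -0.15) for SBP over I/R. Uqcrh, the hinge protein, was almost equal in all 3, at 883, 882 and 864 CPM.

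Cycs encodes cytochrome c, which carries electrons from complex III to complex IV and which starts apoptosis once it leaves the mitochondrion. Its level was 493 CPM in sham, 553 CPM after I/R and 458 CPM with SBP. The I/R section was the highest, with a log2 ratio of 0.16 (0.13 to 0.20) over sham, which is below the median of all genes and turns to -0.05 with median-of-ratios size factors. SBP was the lowest, with a log2 ratio of -0.27 (-0.31 to -0.24) over I/R and -0.11 (-0.15 to -0.07) over sham. Cyc1, the cytochrome c1 of complex III that hands the electron to it, had 677, 602 and 642 CPM in sham, I/R and SBP, so that the 2 neighbours in the chain did not follow the same order.

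**Figure D2:**
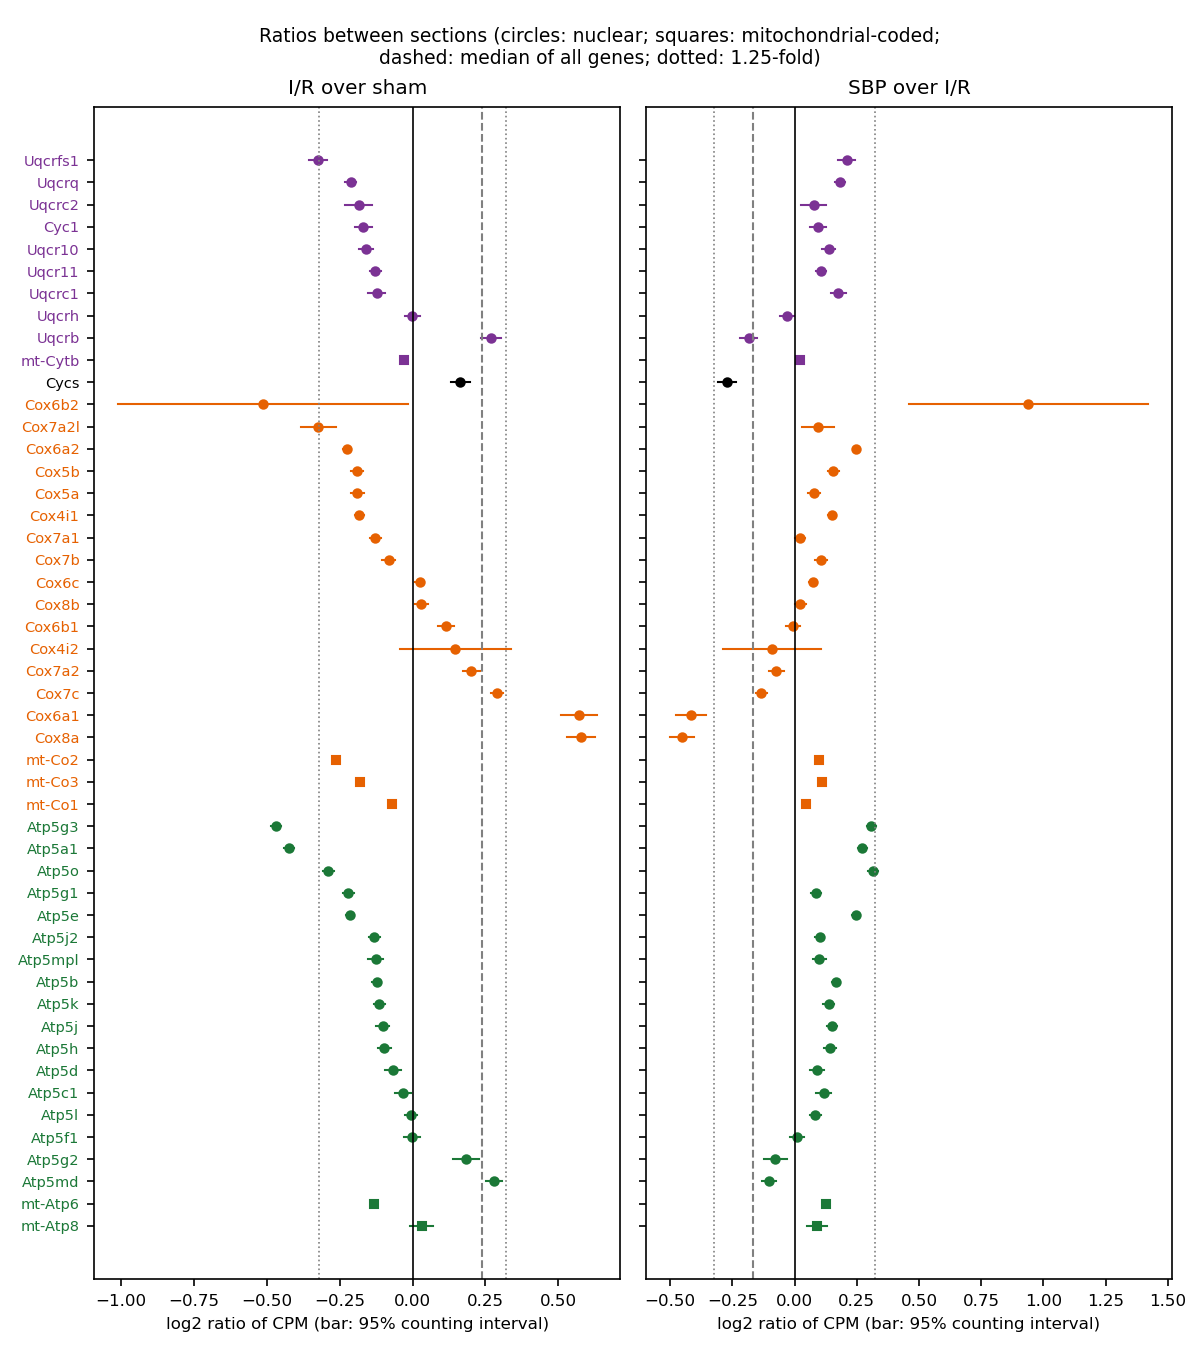
Log2 ratio of each member for I/R over sham (left) and SBP over I/R (right), coloured by complex, with bars for the 95% counting interval, a dashed line at the median of all genes and dotted lines at a log2 ratio of 0.32 in either direction. Most members lie left of 0 in the left panel and right of 0 in the right panel, while Cox8a and Cox6a1 lie beyond the fold on the other side in both; with other scalings the members near 0 change side, and these 2 stay above 0 on the left and below 0 on the right.

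The nuclear genes of complex IV split into 2 directions. Of the 16, 8 had an interval below 0 for I/R over sham and 7 had one above 0, with a median log2 ratio of -0.03, and size factors turned Cox4i2, Cox6b1, Cox6c, Cox7a2 and Cox8b from above to below 0. Cox4i1 and Cox5a, which sit against the catalytic subunits, were lower in I/R. Cox4i1 had 2651 CPM in sham, 2335 CPM after I/R and 2589 CPM with SBP, and Cox5a had 1149, 1008 and 1065 CPM. Cox5b, the subunit that binds zinc, had 1504, 1318 and 1467 CPM. Cox7c was higher in I/R, with 1169 CPM in sham, 1430 CPM after I/R and 1304 CPM with SBP, a log2 ratio of 0.29 (0.27 to 0.31) for I/R over sham, with -0.13 (-0.16 to -0.11) for SBP over I/R. Cox6c, at 2189, 2226 and 2344 CPM, differed little, and its I/R over sham ratio of 0.02 turned negative when each spot weighed the same, when mitochondrial UMIs were left out of the total and with size factors. Cox7a2l had 182 CPM in sham, 146 CPM after I/R and 156 CPM with SBP, and was past the fold in I/R over sham at -0.32 (-0.38 to -0.26).

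Of the 7 genes above 0, 3 are general isoforms and of the 8 below 0, 2 are muscle isoforms, while the muscle isoform Cox8b was also above 0. The pairs are read as shares of the muscle isoform, which need no total and no scaling. The files count 3′ tags, so levels were not divided by transcript length, and a share of UMIs is compared between sections rather than taken as a share of protein. Cox6a2 (ENSMUSG00000030785, GRCm38 chromosome 7, 128205435 to 128206387, minus strand) had 3721 CPM in sham, 3183 CPM after I/R and 3778 CPM with SBP. Cox6a1 (ENSMUSG00000041697, chromosome 5, 115345642 to 115348981, minus strand) had 138, 205 and 154 CPM. The muscle isoform therefore held 96.4% (96.3 to 96.5) of the pair in sham, 94.0% (93.8 to 94.1) in I/R and 96.1% (96.0 to 96.2) in SBP. Cox6a1 was past the fold in both comparisons, with a log2 ratio of 0.57 (0.51 to 0.63) for I/R over sham, with -0.42 (-0.48 to -0.36) for SBP over I/R.

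Cox8b (ENSMUSG00000025488, chromosome 7, 140898945 to 140900446, minus strand) was almost level, with 1232 CPM in sham, 1258 CPM after I/R and 1278 CPM with SBP. Its partner Cox8a (ENSMUSG00000035885, chromosome 19, 7215153 to 7217616, minus strand) had 209, 312 and 228 CPM. Cox8a thus had the highest I/R over sham ratio of all members, 0.58 (0.53 to 0.63), and an SBP over I/R ratio of -0.45 (-0.50 to -0.40). The share of Cox8b was 85.5% (85.1 to 85.9) in sham, 80.1% (79.8 to 80.5) in I/R and 84.8% (84.5 to 85.2) in SBP. The muscle isoform itself had a ratio of 0.03 on the log2 scale for I/R over sham, so in CPM the difference between these sections lay in the general isoform. Other scalings turned the 0.03 negative, so the part of each isoform in the change of share depends on the scaling.

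Cox7a1 (ENSMUSG00000074218, chromosome 7, 30184144 to 30186078, plus strand) had 1655 CPM in sham, 1514 CPM after I/R and 1536 CPM with SBP. Cox7a2 (ENSMUSG00000032330, chromosome 9, 79755361 to 79759878, minus strand) had 659, 758 and 720 CPM. The share of Cox7a1 was 71.5% (71.1 to 71.9) in sham, 66.6% (66.3 to 67.0) in I/R and 68.1% (67.7 to 68.5) in SBP. Here the SBP section lay nearer to I/R than to sham, unlike the Cox6a and Cox8 pairs, where it lay nearer to sham.

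The remaining complex IV pairs were dominated by 1 gene. Cox4i2, an isoform of lung and of oxygen-sensing cells, had 15.8, 17.5 and 16.5 CPM, or 0.594% (0.537 to 0.655) of the Cox4i pair in sham, 0.745% (0.683 to 0.811) in I/R and 0.632% (0.568 to 0.701) in SBP, and the intervals of I/R and SBP overlapped. Cox6b2, known as the testis isoform, rested on 77 UMIs in sham, 65 after I/R and 89 with SBP. It was past the fold in every comparison, at -0.51 (-1.01 to -0.02), 0.94 (0.46 to 1.42) and 0.42 (-0.03 to 0.88) for I/R over sham, SBP over I/R and SBP over sham, and the last interval holds 0. Its partner Cox6b1 had 802, 867 and 863 CPM, so Cox6b2 stayed below 1% of the pair in all 3 sections.

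**Figure D3:**
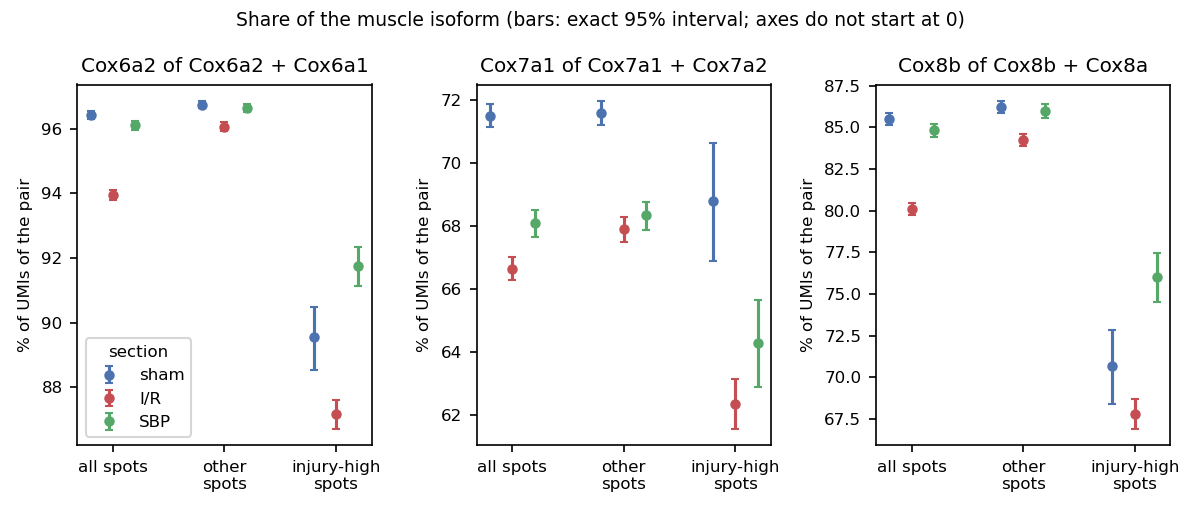
Share of the muscle isoform in the UMIs of each complex IV pair, for all spots, for spots low in injury genes and for injury-high spots, with exact 95% intervals; the axes do not start at 0. The share is lower in injury-high spots in all 3 pairs and all 3 sections, for example 67.8% against 84.2% for Cox8b in I/R.

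The starts of the isoform genes are shown because the muscle and the general isoforms differ in them. Below are the 250 bases before the start site of RefSeq (GRCm38.p6), 5′ to 3′ on the gene's strand, for the 5 of the 6 genes that the table holds; Cox6a2 is not in it. Capitals mark letters of a searched motif, the NRF1 core GCGCANGCG or the ETS core CCGGAAGT on either strand, and the Cox8a match runs past the last base shown.
Cox6a1, chr5:115348959-115349208, minus strand: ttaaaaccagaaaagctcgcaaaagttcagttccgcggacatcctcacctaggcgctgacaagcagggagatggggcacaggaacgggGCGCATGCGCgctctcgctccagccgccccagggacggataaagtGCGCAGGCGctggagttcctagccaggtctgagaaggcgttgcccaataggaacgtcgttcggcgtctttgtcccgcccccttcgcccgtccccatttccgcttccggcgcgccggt
Cox7a2, chr9:79759854-79760103, minus strand: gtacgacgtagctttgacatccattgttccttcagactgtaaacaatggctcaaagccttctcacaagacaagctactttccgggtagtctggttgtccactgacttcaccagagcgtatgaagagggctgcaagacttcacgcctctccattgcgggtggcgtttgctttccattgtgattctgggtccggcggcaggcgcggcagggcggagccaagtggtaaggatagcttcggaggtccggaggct
Cox8a, chr19:7217617-7217866, minus strand: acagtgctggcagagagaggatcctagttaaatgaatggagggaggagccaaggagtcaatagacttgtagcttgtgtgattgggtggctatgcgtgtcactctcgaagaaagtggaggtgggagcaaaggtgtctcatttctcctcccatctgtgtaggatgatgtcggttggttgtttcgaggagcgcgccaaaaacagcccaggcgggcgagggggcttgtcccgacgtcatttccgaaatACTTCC
Cox7a1, chr7:30183921-30184170, plus strand: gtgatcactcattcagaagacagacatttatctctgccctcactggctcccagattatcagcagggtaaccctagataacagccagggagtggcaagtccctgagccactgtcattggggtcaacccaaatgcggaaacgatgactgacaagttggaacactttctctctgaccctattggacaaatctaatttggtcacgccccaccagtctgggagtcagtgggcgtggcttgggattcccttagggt
Cox8b, chr7:140900447-140900696, minus strand: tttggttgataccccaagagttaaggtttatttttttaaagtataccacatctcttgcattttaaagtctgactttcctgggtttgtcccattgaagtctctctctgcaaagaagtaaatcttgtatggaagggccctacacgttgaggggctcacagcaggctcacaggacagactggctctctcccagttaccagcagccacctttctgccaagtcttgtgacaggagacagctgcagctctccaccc
The observed over expected ratio of CG dinucleotides in these 250 bases was 1.06 for Cox6a1, 0.75 for Cox7a2 and 0.68 for Cox8a, against 0.24 for Cox7a1 and 0.073 for Cox8b. The 3 general isoforms thus have CG-rich starts and the 2 muscle isoforms CG-poor ones. Over the 36 start sites of the 33 nuclear members in the table the median was 0.77, against 0.37 for all 32817 start sites.

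The same windows, with 50 bases after the start added (300 bases in all), were searched for cores of factors known to drive nuclear genes of respiration. The NRF1 core GCGCANGCG was in 11 of 36 member windows (30.6%), against 6.24% of all windows. Among them were Cox6a1, with cores beginning 162 and 117 bases before the start, Cycs, Uqcrc1, Atp5g2 and Atp5g3. The ETS core CCGGAAGT, bound by GABP, was in 4 (11.1%, against 3.89%), the YY1 core AAGATGGCG in 2 (5.56%, against 1.40%), and the ERR core TCAAGGTCA in 1 (2.78%, against 0.424%), which was Atp5g3. None of the 4 cores was in the windows of Cox7a1, Cox7a2 or Cox8b. A match shows these letters and no bound factor. The NRF1 core itself holds CG letters and the member windows were richer in them than all windows, and the 2 were not separated.

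Apart from Cox6b2, the lowest I/R over sham ratios of all members were in complex V. Atp5g3, 1 of 3 genes that encode the same c subunit of the rotor ring, had 2376 CPM in sham, 1717 CPM after I/R and 2125 CPM with SBP. Its log2 ratio was -0.47 (-0.49 to -0.45) for I/R over sham, with 0.31 (0.29 to 0.33) for SBP over I/R. Atp5a1, the alpha subunit of the catalytic head, had 2409 CPM in sham, 1797 CPM after I/R and 2169 CPM with SBP, a ratio of -0.42 (-0.44 to -0.41) for I/R over sham, with 0.27 (0.25 to 0.29) for SBP over I/R. Both were past the fold for I/R over sham, and both were below sham in SBP, with log2 ratios of -0.16 and -0.15. Atp5o, the stalk protein that ties head to membrane, had 1741 CPM in sham, 1425 CPM after I/R and 1774 CPM with SBP, just inside the fold at -0.29 and 0.32.

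The beta subunit Atp5b, which carries the catalytic sites, differed less than its partner Atp5a1. It had 2632 CPM in sham, 2416 CPM after I/R and 2714 CPM with SBP, a log2 ratio of -0.12 (-0.14 to -0.11) for I/R over sham. Atp5e, the epsilon subunit, had 2726, 2349 and 2787 CPM. The gamma subunit Atp5c1, the shaft that turns in the head, had 722, 705 and 765 CPM, and Atp5f1, the b subunit of the stalk, was level at 751, 750.4 and 756 CPM. Atp5md, a small subunit of the membrane part, was the complex V gene highest in I/R, with 697 CPM in sham, 846 CPM after I/R and 787 CPM with SBP. Its ratio was 0.28 (0.25 to 0.31) for I/R over sham, with -0.10 (-0.13 to -0.08) for SBP over I/R, the latter turning positive with size factors. Of the 17 nuclear genes of complex V, 13 had an interval below 0 for I/R over sham and 14 had one above 0 for SBP over I/R.

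The c-ring genes gave a shift of shares like that of complex IV. Atp5g1 had 1717, 1474 and 1563 CPM in sham, I/R and SBP, and Atp5g2 had 263, 298 and 283 CPM. Atp5g3 held 54.5% (54.3 to 54.8) of the c-ring UMIs in sham, 49.2% (48.9 to 49.5) in I/R and 53.5% (53.2 to 53.9) in SBP. Atp5g2, the least abundant of the 3, held 6.03% (5.89 to 6.17), 8.54% (8.38 to 8.71) and 7.12% (6.95 to 7.29). Atp5g1 held 39.4% in sham and in SBP and 42.2% (41.9 to 42.5) in I/R. The protein that the 3 genes encode is the same after its import signal is removed, so these shares are of transcripts only.

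All 6 mitochondrial-coded members lay below the median of all genes for I/R over sham, but not equally. mt-Co2, the subunit of complex IV that receives electrons from cytochrome c, had 63480 CPM in sham, 52935 CPM after I/R and 56602 CPM with SBP. Its ratio of -0.26 (-0.27 to -0.26) was the lowest of the 6, and SBP was also below sham, at -0.17 (-0.17 to -0.16). mt-Co3 had 103407, 91291 and 98610 CPM, and mt-Co1, the catalytic subunit, had 96388, 91837 and 94851 CPM. mt-Cytb, the only mitochondrial-coded subunit of complex III, was almost level at 45420, 44554 and 45228 CPM, a ratio of -0.03 for I/R over sham. mt-Atp6, the channel subunit beside the c ring, had 55259, 50427 and 55056 CPM. mt-Atp8 had 371, 379 and 403 CPM. It overlaps mt-Atp6 by 43 bases and is read on the same transcript, upstream of mt-Atp6, so that a tag at the 3′ end of that transcript falls outside it, and the levels of the 2 genes were not compared.

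Nuclear and mitochondrial-coded UMIs of the same complex can be set against each other with no total. Over all members there were 7.04 mitochondrial-coded UMIs per nuclear UMI in sham, 6.97 after I/R and 6.79 with SBP, log2 ratios of nuclear over mitochondrial-coded of -2.82, -2.80 and -2.76. The direction of the I/R section differed by complex. In complex III the log2 ratio was -2.51 (-2.52 to -2.50) in sham, -2.61 (-2.62 to -2.60) in I/R and -2.53 (-2.54 to -2.52) in SBP, so the nuclear part was lowest in I/R. In complex IV it was -3.83 (-3.84 to -3.83), -3.74 (-3.74 to -3.73) and -3.74 (-3.74 to -3.73), so the nuclear part was highest in I/R and SBP. Complex V had -1.16, -1.21 and -1.17.

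Genes that build or feed the same machine were taken from lists of textbook members. The 37 nuclear genes of complex I had a median of -0.11 on the log2 scale for I/R over sham, with 0.10 for SBP over I/R, close to the members. Past the fold for I/R over sham, 5 of the 37 were lower, against 10.9% of all genes, and 0 were higher, against 42.6%. Ndufs6, a subunit of the electron-input module with the most UMIs of that list, had 1180 CPM in sham, 870 CPM after I/R and 1065 CPM with SBP. The 4 genes of complex II had -0.10 and 0.10. Of the 7 genes that carry or buffer adenine nucleotides and phosphate, 2 were lower past the fold for I/R over sham and none was higher, against the same shares of all genes. Their median was -0.19. Slc25a4, the heart ADP/ATP carrier that exchanges the product of complex V, had 4361 CPM in sham, 3488 CPM after I/R and 4227 CPM with SBP, while Slc25a5, its form in dividing cells, had 242, 263 and 234 CPM.

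Assembly factors, which help to build the complexes without staying in them, were taken by complex. Of 22 complex IV factors with enough UMIs, 6 were higher past the fold for I/R over sham (27.3%, against 42.6% of all genes) and 2 lower (9.09%, against 10.9%), with a median of 0.09, below that of all genes. For SBP over I/R 1 was lower (4.55%, against 32.6% of all genes) and 0 were higher (against 7.78%), with a median of -0.12. Size factors turned both medians, to -0.12 and 0.01, and leaving mitochondrial UMIs out of the total turned the first, to -0.02. Cox17, the copper chaperone, had 318, 340 and 326 CPM in sham, I/R and SBP, and Cox14 had 136, 139 and 148 CPM. Of 6 complex III factors, 2 were lower (33.3%) and 0 higher for I/R over sham, with a median of -0.13. Of 4 complex V factors, 1 was lower (25%) and 0 higher, with a median of -0.04. For I/R over sham both medians had the same sign as those of their nuclear subunits. For SBP over I/R they did not, with -0.05 for the complex III factors and -0.09 for the complex V factors, against 0.11 and 0.12 for the subunits. Size factors turned these 2 factor medians to 0.08 and 0.04. These lists are too short for their counts to be told from the shares of all genes, 10.9% lower and 42.6% higher. Ndufa4, once counted in complex I and now placed in complex IV, is not matched by the rule on symbols, and had 2465 CPM in sham, 2034 CPM after I/R and 2371 CPM with SBP.

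Among 15 regulators of mitochondrial gene expression, 4 were lower (against 10.9% of all genes) and 2 higher (against 42.6%) past the fold for I/R over sham, with a median of -0.14. For SBP over I/R 3 were lower (against 32.6% of all genes) and 2 higher (against 7.78%), with a median of -0.12. The SBP over sham median was -0.13. Esrra, a nuclear receptor that drives genes of respiration, had 102 CPM in sham, 74.3 CPM after I/R and 92.2 CPM with SBP, a log2 ratio of -0.46 (-0.54 to -0.38) for I/R over sham, with 0.31 (0.22 to 0.40) for SBP over I/R. Ppargc1a, the coactivator that binds it, had 17.2, 14.9 and 18.4 CPM. Pprc1, a coactivator of the same family induced by growth signals, was the opposite, with 8.08, 14.3 and 11.5 CPM and a ratio of 0.82 (0.58 to 1.07) for I/R over sham. Gabpb1, the partner of the ETS factor Gabpa, had 2.99, 5.82 and 3.10 CPM on 67 to 176 UMIs. Tfam, which packs and transcribes mitochondrial DNA, had 23.8, 22.5 and 20.7 CPM.

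The median nuclear member differed more between the groups of spots described here than between whole sections. These groups were chosen by injury genes and whole sections were not, so the 2 comparisons are unlike. Cox8a and Atp5g2 differed less between the spot groups of I/R and of SBP than between I/R and sham. Every spot was drawn down to 6500 UMIs at random, which left out 132 to 213 shallower spots per section, and the UMIs of 15 injury genes (such as Timp1, Spp1, Fn1 and Ccn2, genes of matrix and wound repair) were added up. A spot with at least 14 of them, a number that at most 5% of sham spots reach, was called injury-high. These were 101 of 2102 spots in sham (4.80%), 603 of 1880 in I/R (32.1%, 30.0 to 34.2) and 216 of 1747 in SBP (12.4%, 10.9 to 14.0). The injury list was chosen with earlier results of these sections known, and its genes are not members. Levels in the 2 kinds of spot used all UMIs, and the median depth was similar in both in I/R (15186 and 15250 UMIs). Injury-high spots were deeper than the others in sham (13665 and 10784) and in SBP (12231.5 and 11077).

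In injury-high spots the nuclear members summed to 39332 CPM in sham, 35453 CPM after I/R and 41458 CPM with SBP. In the other spots they summed to 52549, 53816 and 53423 CPM. The median log2 ratio of the 43 nuclear members, injury-high over other spots, was -0.40 in sham, -0.61 after I/R and -0.36 with SBP, and 38, 39 and 40 of them were lower. For I/R this median was -1.04 without mitochondrial UMIs in the total and -0.33 when spots were chosen by Ankrd1 in place of the injury genes. The summed mitochondrial-coded members had -0.50, -0.62 and -0.36, so the pooled transcripts of both genomes were lower in these spots. The median of all genes had 0.68, 0.82 and 0.50 and the 10 cardiomyocyte markers -0.69, -0.81 and -0.48, below the members in each section. The 7 macrophage markers summed to 1745 to 2455 CPM in injury-high spots and 538 to 585 CPM in the others, with all 7 higher in every section, as were all 5 smooth muscle markers (summed log2 ratios of 1.68 in sham, 2.03 after I/R and 1.92 with SBP). The 4 neutrophil markers had summed log2 ratios of 3.38, 4.10 and 2.75, with 3, 4 and 4 of them higher, and the 7 fibroblast markers had 0.97, 0.28 and 0.29, with 6, 4 and 4 higher. The part of these cell types in the values of the members was not tested.

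A few members stood against this. Cox6a1 was higher in injury-high spots of every section, with log2 ratios of 1.12 in sham, 0.96 after I/R and 0.82 with SBP, and so were Cox8a, with 0.69, 0.42 and 0.35, and Atp5g2, with 0.34, 0.16 and 0.05. Cox4i2 had 0.75, 0.45 and -0.05. The median of all genes was 0.68 in sham, 0.82 after I/R and 0.50 with SBP, and 40, 42 and 42 of the 43 nuclear members lay below it. In I/R and SBP only Cox6a1 was above it, and Atp5g2 was below it in every section. Leaving mitochondrial UMIs out of the total lowers all these ratios, the median member of I/R from -0.61 to -1.04. The sign of the smaller ratios therefore depends on the scaling. The muscle isoforms were among the lowest, Cox8b at -0.92, Cox6a2 at -0.88 and Cox7a1 at -0.84 in I/R, together with Uqcrfs1 at -0.95. Cox7a2, although a general isoform, was lower in injury-high spots, at -0.40, -0.49 and -0.29.

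The muscle share was lower in injury-high spots in every pair and section. For Cox6a2 it was 89.5% (88.5 to 90.5) against 96.7% in the other spots of sham, 87.2% (86.7 to 87.6) against 96.1% in I/R and 91.7% (91.1 to 92.3) against 96.6% in SBP. For Cox8b it was 70.6% against 86.2% in sham, 67.8% against 84.2% in I/R and 76.0% against 86.0% in SBP. For Cox7a1 it was 68.8% against 71.6%, 62.3% against 67.9% and 64.3% against 68.3%, the smallest gap of the 3 pairs. Summed over the pairs, the muscle share of injury-high minus other spots was -7.70 percentage points in sham, -9.67 after I/R and -5.73 with SBP, and with spots chosen by Ankrd1 it was -4.55 after I/R and -2.83 with SBP.

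In CPM, and compared with all spots, the median differences of the nuclear members between I/R and either other section were larger in injury-high spots. In the other spots they were smaller and of the opposite sign. In spots that were not injury-high, the median nuclear member had a ratio of 0.04 on the log2 scale for I/R over sham, with -0.03 for SBP over I/R, against -0.12 and 0.09 over all spots. The median of all genes in these spots was -0.04 and 0.07, and 27 and 18 of the 43 nuclear members were above 0. In injury-high spots the median nuclear member had -0.15 and 0.19, and the median of all genes there was 0.04 and -0.20. For I/R over sham the median of all genes was 0.24 over all spots. Against it, the members lay further below over all spots than in injury-high spots. Injury-high spots did not hold equal levels of the injury genes, which summed to 4709 (sham), 6117 (I/R) and 4129 (SBP) CPM. The sham heart had no ligation, so this sum is not a measure of injury alone. In these spots the fibroblast markers summed to 3487, 1720 and 1958 CPM and the smooth muscle markers to 970, 529 and 383 CPM, in that order. At 10 to 19 injury UMIs the nuclear members summed to 44186 (sham), 44471 (I/R) and 45428 (SBP) CPM. At 20 to 39 they summed to 38760, 37080 and 40600, and at 40 or more to 32525, 28309 and 33960, in that order. The part of unequal injury-gene levels and of cell types in the medians of the members was not tested. Some members differed in the other spots as well. Cycs was at 0.35 for I/R over sham, with -0.43 for SBP over I/R there, and Cox8a at 0.48 and -0.36. Uqcrb was at 0.45 and -0.32, Cox7c at 0.45 and -0.26, Atp5md at 0.43 and -0.23, and Cox7a2 at 0.33 and -0.18. All of these but Cox8a lay further from 0 there than over all spots. For I/R over sham, 6 of the 43 nuclear members were higher past the fold there and 1 was lower. The share of all genes past the fold in these spots was not computed. Atp5g3 and Atp5a1 were lower in the other spots too, at -0.28 and -0.23 for I/R over sham. The Cox8b share of the other spots was 86.2% in sham, 84.2% (83.9 to 84.6) in I/R and 86.0% (85.6 to 86.4) in SBP. The Cox7a1 share was 71.6%, 67.9% and 68.3% there, and the intervals of I/R (67.5 to 68.3) and SBP (67.9 to 68.8) overlapped.

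**Figure D4:**
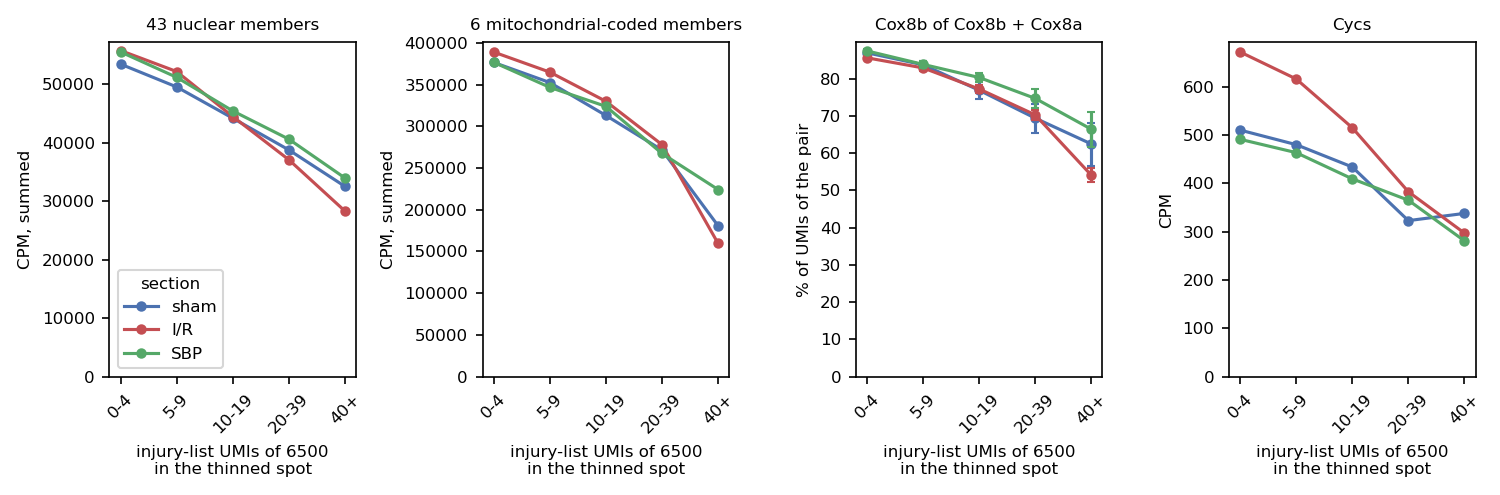
Summed level of the nuclear and of the mitochondrial-coded members, share of Cox8b in its pair (bars: exact 95% interval) and level of Cycs, in spots grouped by their injury-gene UMIs after thinning to 6500 UMIs, for each section. The first 3 panels go down from the lowest to the highest group in all 3 sections, and Cycs of I/R lies above the other sections up to the group of 20 to 39 UMIs.

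The members followed the injury genes in steps rather than at 1 threshold. In I/R the nuclear members had 55755 CPM in spots with 0 to 4 injury UMIs, 52164 with 5 to 9, 44471 with 10 to 19, 37080 with 20 to 39 and 28309 with 40 or more. The Cox8b share went from 85.6% to 54.1% over these groups, the Cox6a2 share from 96.7% to 77.5% and the Cox7a1 share from 68.2% to 56.9%. In sham the same ends were 53430 and 32525 CPM and in SBP 55518 and 33960 CPM, where the highest group held 27 and 37 spots. The cardiomyocyte markers went from 44894 to 14802 CPM in I/R, a wider range than that of the members. Nuclear over mitochondrial-coded UMIs stayed between -2.91 and -2.80 in I/R up to 39 injury UMIs and reached -2.50 in the highest group, in which the mitochondrial-coded members had 159638 CPM. In sham this log2 ratio was -2.81 with 20 to 39 injury UMIs and -2.47 in the highest group. In SBP it was -2.72 in both.

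Spots of the I/R section were spread the widest. Of 6500 UMIs, the nuclear members took 283, 344 and 392 at the 10th percentile, median and 90th percentile of sham spots, 195.9, 329 and 399 in I/R and 269, 345 and 401 in SBP. The upper ends were thus alike and the lower end was lower in I/R. The mitochondrial-coded members took 2081, 2423 and 2660 in sham, 1279.7, 2326 and 2695 in I/R and 1911, 2336 and 2663 in SBP. Across spots, nuclear members and cardiomyocyte markers had a Pearson correlation of 0.75 in sham (2102 spots), 0.91 in I/R (1880) and 0.81 in SBP (1747). The spots of a section share a library and a total fixed by thinning, so these are descriptions of the sections. Cox6a1, Cox7a2 and Cox8a together had a correlation of 0.04, 0.03 and -0.02 with the injury genes, on a median of 6 to 8 UMIs per spot. This sum mixes opposite directions: Cox7a2, with the most UMIs among them, was lower in injury-high spots, while Cox6a1 and Cox8a were higher.

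**Figure D5:**
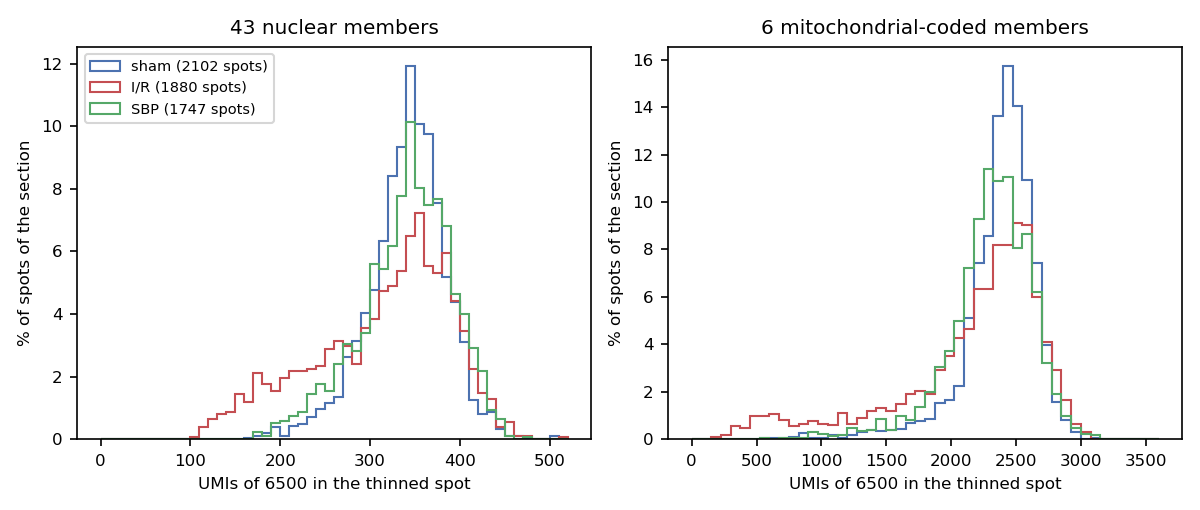
Share of spots by the UMIs of the nuclear (left) and mitochondrial-coded (right) members among 6500 UMIs per thinned spot, for the 2102 sham, 1880 I/R and 1747 SBP spots. The peaks lie close together, and I/R has a tail of low spots, with a 10th percentile of 195.9 nuclear UMIs against 283 in sham.

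Several members share sequence with other genes, which limits how their reads could be placed. In the last 500 bases of the transcripts, cut into windows of 91 bases, 13 of 49 members had a window identical to one of a gene that the files do not list, and 1 member, Cox5b, shared 9.27% of its windows with a listed gene, Gm11273. The mitochondrial-coded mt-Co1, mt-Co2, mt-Co3 and mt-Atp6 each shared 94.9 to 99.8% of their windows with a pseudogene on chromosome 1, a copy of mitochondrial DNA in the nuclear genome. Atp5l shared 53.4%, Atp5h 46.3% and Cox7c 26.6% with 1 pseudogene each, and Cox6a1 3.90%. Atp5o shared 35.4% with an unlisted protein-coding gene of the same name, which overlaps it on the same strand. Uqcrb shared 12.0% with Gm16089, and Atp5g2 shared 9.02% with Gm10175. How the counting treated such reads is not given in the sources used here, and the levels of these genes are uncertain to that extent. Cox6a2, Cox7a1, Cox7a2, Cox8a, Cox8b, Atp5g1, Atp5g3 and Atp5a1 shared no window.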

How the data were processed

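The analysis used the Visium library of 1 section per condition and left the single-nucleus data aside. The authors deposited raw UMI counts, per gene and per spot and without normalization. The submitters' processing notes name Space Ranger 1.3.0 and build mm10. The methods of the paper give a human reference and an earlier version, but the genes listed are those of mouse.

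Spots in which under 200 genes were detected were removed. UMIs were summed per section and divided by all UMIs of its spots. The 95% intervals were exact: Poisson for levels, Clopper-Pearson for shares, and conditional binomial for ratios. They cover counting error only. For spot groups, each spot was thinned without replacement, with a fixed seed, to 6500 UMIs. Spot positions were not used. No cell types were called and no doublet caller was run.

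The members and the gene lists were chosen with earlier results of these data known. Genes were named by rule: all mitochondrial-coded members, all members of isoform families, the 2 highest and 2 lowest ratios of each complex, members past a log2 ratio of 0.32 or with fewer than 200 UMIs, and of other lists the 2 genes with the most UMIs, those past 1.5-fold with at least 200 UMIs and defining markers. Of the other lists, not every gene that this rule covers is named here, and some genes were named after their values were seen. Gene positions and transcripts are from GENCODE M21, where 32158 of 32285 identifiers and all 49 members were found, and start sites are from RefSeq (GRCm38.p6). The ratios were tested on simulated data of 12659 genes. Alternatives were a total without the 13 mitochondrial genes, median-of-ratios size factors, equal weight of spots, no spots left out, at least 500 UMIs, 1.5-fold, another injury threshold and Ankrd1 in place of the injury genes. All steps ran in Python 3.11.15 (scipy 1.17.1, numpy 2.4.6, pandas 2.3.3; plots with matplotlib 3.10.9).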

Additional observations from a re-analysis of the deposited data

How the results depend on the processing

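No paired analysis was possible because there was only 1 section of each kind. No section can be left out and no spread between animals is known, so depth limits only single genes, of which Cox6b2 is the weakest. Leaving in the sparse spots moved no result past its counting interval.

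For I/R over sham, the median log2 ratio of the nuclear members was -0.24 without the mitochondrial UMIs in the total, -0.34 with size factors, -0.16 with equal weight of spots and -0.119 over members with at least 500 UMIs, and the summed mitochondrial-coded members had -0.25, -0.35 and -0.21 under the first 3. For SBP over I/R, the nuclear median was 0.15, 0.23 and 0.13 and the mitochondrial-coded sum 0.13, 0.21 and 0.13 under these 3. The directions of all these medians and sums were kept. The ratios of the members for SBP over sham were not run under these settings. The counts past the fold depended on the total. Members lower for I/R over sham numbered 11 without mitochondrial UMIs and 26 with size factors, against 5, and members higher for SBP over I/R numbered 4, 7 and 3 under the 3 settings and 0 over members with at least 500 UMIs, against 1. The share of all genes past the fold was not computed under these settings, so these counts have no background beside them. With size factors 0 members were lower for SBP over I/R, against 2. At 1.5-fold, 0 were lower and 0 higher for I/R over sham and 0 lower for SBP over I/R, by the stricter fold alone. Size factors shifted every log2 ratio by -0.22 for I/R over sham, with 0.13 for SBP over I/R. They turned 8 members from above to below 0 for I/R over sham (Cox4i2, Cycs, Cox6b1, Cox8b, Cox7a2, Cox6c, Atp5g2 and mt-Atp8) and 6 from below to above 0 for SBP over I/R (Cox4i2, Uqcrh, Cox6b1, Cox7a2, Atp5g2 and Atp5md), none of them past the fold.

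Equal weight of spots gave a Cox8b share of 86.0% in sham and 79.5% in I/R, a Cox6a2 share of 93.5% in I/R, and nuclear over mitochondrial-coded log2 ratios of -2.80 in sham, -2.76 after I/R and -2.74 with SBP. The other isoform shares stayed within their counting intervals.

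For injury-high over other spots, the nuclear median was -0.52 in I/R and -0.29 in SBP with a threshold of at most 10% of sham spots, -0.33 and -0.25 with Ankrd1-high spots, and -1.04 and -0.63 without mitochondrial UMIs. The mitochondrial-coded sum was -0.52 and -0.27, -0.19 and -0.11, and -1.06 and -0.63, in the same order. The muscle isoform share changed by -8.06 and -4.30 percentage points with the 10% threshold and by -4.55 and -2.83 with Ankrd1-high spots. The cause of these movements was not tested.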

Other observations

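The mitochondrial-coded genes of complex I, which the rule on symbols leaves out, were less alike than the 6 described above. mt-Nd1 had 33922 CPM in sham, 26775 CPM after I/R and 27415 CPM with SBP, a log2 ratio of -0.34 (95% interval -0.35 to -0.34) for I/R over sham, with 0.03 for SBP over I/R. mt-Nd2, chosen after its values were seen, had 26432, 29343 and 26016 CPM, a ratio of 0.15 (0.15 to 0.16) for I/R over sham, with -0.17 for SBP over I/R. The mt-Nd2 ratio for I/R over sham is below the median of all genes (0.24) and turned to -0.06 with size factors, under which its SBP over I/R ratio was -0.04. With size factors the mt-Nd1 ratio for I/R over sham was -0.56. mt-Nd4, with the most UMIs of the list, had 38725, 36312 and 37889 CPM. These transcripts are cut from shared precursors, and the comparison rests on 1 section per condition.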
